A study of Mus musculus with 24 samples.

Results

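Levels of 88 nuclear genes of oxidative phosphorylation were read in invariant natural killer T (iNKT) cells, out of 55335 genes in the deposited table. The genes were taken by symbol, as protein-coding genes that begin with Nduf, Uqcr or Atp5, that read Cox followed by a digit between 4 and 8, or that are 1 of the 4 Sdh genes, Cyc1 or Cycs. Of 96 such genes, the 88 with a mean of at least 1 CPM (a gene's counts scaled to the total of its library) over the 24 libraries were kept. They comprise 36 subunits of complex I, 4 of complex II, 9 of complex III, 12 of complex IV, 18 of complex V, cytochrome c, and 8 Ndufaf factors that help to assemble complex I. The 8 genes under 1 CPM are isoforms known from muscle, heart, testis or hypoxic cells: Cox4i2, Cox6a2, Cox6b2, Cox7a1, Cox7b2, Cox8b, Cox8c and Ndufa4l2. The highest of these, Cox7a1, had a mean of 0.234 CPM, and the lowest gene kept was a second gene model named Atp5o, at 1.16 CPM. All 88 passed the filter on low counts and were tested.

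Oxidative phosphorylation is carried out in the inner membrane of mitochondria, where complexes I and II take electrons from NADH and succinate, complex III passes them to cytochrome c, and complex IV passes them to oxygen. Complexes I, III and IV pump protons, and complex V, the ATP synthase, uses the returning protons to make ATP. Most subunits are encoded in the nucleus and imported, while a small set in the cores of complexes I, III, IV and V is encoded by mitochondrial DNA. T cells that meet antigen are known to build up mitochondria as they grow, and the transcription factors NRF1, GABP (an ETS protein) and YY1 are known to bind promoters of many of these genes.

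The cells came from mesenteric lymph nodes of C57BL/6J mice whose dams had received feces of CD1d-knockout donors (KO FT) or wild-type donors (WT FT), where FT stands for fecal transplant. CD1d presents lipids to iNKT cells, and the offspring themselves are not described as knockouts. By gavage each mouse received 2 µg of aGC (alpha-galactosylceramide, the lipid with which iNKT cells are classically activated) in 200 µL PBS, or PBS alone, and the cells were taken 24 h later. With both sexes there were 8 groups of 3 libraries: KO FT aGC, KO FT PBS, WT FT aGC and WT FT PBS, each in males and females. Effects of the donor and of the dam, litter or cage cannot be told apart. The sources used here do not give the number of mice per library, their age or the sort gate, so p-values measure only the spread between libraries, which may be technical.

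Libraries held 9764931 to 37016768 estimated counts, at which 3 counts correspond to 0.0810 to 0.307 CPM (counting error only). All 10 listed iNKT markers were detected, and the lineage factor gene Zbtb16 stood at 30.8 to 84.9 CPM. Cd8a and the summed naive T cell genes crossed sex with treatment. Cd8a, a co-receptor gene of CD8 T cells, stood at 181 to 251 CPM in the aGC females and 131 to 292 CPM in the PBS males, but at 5.54 to 8.10 CPM in the aGC males and 4.79 to 6.77 CPM in the PBS females. By the test given below, 5 of the 7 listed CD8 T cell genes were higher and 2 lower with aGC in females of both transplants. In males 2 were higher and 4 lower in KO FT mice, and 2 higher and 5 lower in WT FT mice. Of all genes, 27.7% and 28.6% were higher in KO FT and WT FT females, and 26.7% and 34.9% lower in the males. The 8 listed naive T cell genes summed to 2104 to 2650.4 CPM in aGC females and 2862 to 3409 CPM in PBS males, against 829 to 954 CPM in aGC males and 1167 to 1316 CPM in PBS females. Every contrast of aGC with PBS within a sex therefore sets groups high in Cd8a and the summed naive genes against groups low in them. The part of the markers in the results was not tested. Results are also given for the 4 groups with Cd8a under 50 CPM, in which aGC is read in males and PBS in females, so that treatment and sex cannot be told apart there.

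Promoters are shown for 3 members, because the first 2 rose most in WT FT mice and the third differed most between the transplants in its response. They were chosen after their values were seen, from the 13 members whose promoter held the NRF1 word used here, GCATGCGC on either strand. Each is read 5′ to 3′ along the gene in GRCm38.p6, from 250 bases before the RefSeq start, with capitals for matches to that word and to the ETS word CCGGAAG. Cycs, at chr6:50566540-50566819 on the minus strand, has 1 NRF1 match. Ndufaf4, at chr4:24897833-24898112 on the plus strand, has 3, of which the first 2 overlap on opposite strands. Atp5k, at chr5:108434370-108434649 on the minus strand, has 2 that overlap on opposite strands, and 1 ETS match read from the other strand.
Cycs: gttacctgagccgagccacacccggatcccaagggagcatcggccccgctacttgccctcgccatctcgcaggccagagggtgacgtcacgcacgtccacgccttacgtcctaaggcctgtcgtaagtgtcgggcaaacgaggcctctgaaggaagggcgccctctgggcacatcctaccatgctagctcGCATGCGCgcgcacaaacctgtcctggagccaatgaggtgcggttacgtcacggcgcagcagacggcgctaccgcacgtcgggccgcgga
Ndufaf4: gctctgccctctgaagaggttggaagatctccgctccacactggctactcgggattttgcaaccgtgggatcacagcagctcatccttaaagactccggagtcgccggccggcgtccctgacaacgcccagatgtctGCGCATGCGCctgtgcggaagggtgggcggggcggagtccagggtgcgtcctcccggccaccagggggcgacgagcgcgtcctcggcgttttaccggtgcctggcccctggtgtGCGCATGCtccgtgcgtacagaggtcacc
Atp5k: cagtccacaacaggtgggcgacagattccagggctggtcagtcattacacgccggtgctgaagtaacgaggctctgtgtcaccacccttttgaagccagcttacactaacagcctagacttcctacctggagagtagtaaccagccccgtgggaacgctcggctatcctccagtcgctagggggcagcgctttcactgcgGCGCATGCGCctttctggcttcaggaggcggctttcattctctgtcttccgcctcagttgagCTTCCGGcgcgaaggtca

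Of the 88 genes, 72 had a promoter in the RefSeq table, searched from 250 bases before to 50 after the start. The NRF1 word stood in 13 of them (18.1%), against 3.05% of the 27025 promoters in the table and 3.94% of the 17492 of protein-coding genes. The ETS word stood in 18 (25%), against 9.93% of all and 12.95% of protein-coding promoters. The YY1 word AAGATGGCG stood in 8 (11.1%), against 1.64% and 2.14%. The members with an NRF1 match were Ndufa6, Ndufa8 and Ndufa11 of complex I, Sdhb of complex II, Uqcr11 and Uqcrc1 of complex III, Cox6a1 of complex IV, Atp5g2, Atp5k and Atp5l of complex V, Cycs, Ndufaf4 and Ndufaf5. The median log2 change with aGC in WT FT mice was 0.66 for the 13 genes with the word and 0.54 for the 59 without it. A match is a description of the letters in this window and does not show binding.

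Levels differed more between genes than between complexes. Per kilobase of transcript, the median member stood at 114 CPM per kb in complex I, 212 in complex II, 199 in complex III, 221 in complex IV and 204 in complex V. The assembly factors were lower, with a median of 26.2 CPM per kb, and Cycs stood at 28.2. Gm10053, a gene model that shares sequence with Cycs, had a mean of 218 CPM, above the 88.0 CPM of Cycs. The level of Cycs therefore depends on how reads were split between them. The most abundant were Atp5b, the catalytic beta subunit of ATP synthase, at 1088 CPM per kb, the complex III core protein gene Uqcrc1 at 536 and Atp5a1, the alpha subunit, at 494. Atp5b alone held 2475 and 2245 CPM in KO FT aGC females and males, and 3052 and 3142 CPM in the WT FT ones.

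With aGC the genes of all 5 complexes rose in WT FT mice, and fewer rose in KO FT mice. In KO FT mice 42 of the 88 genes rose and 13 fell, with a median log2 change of 0.12 (edgeR quasi-likelihood test on all 24 libraries, Benjamini-Hochberg adjusted p under 0.05 over 15953 genes). In WT FT mice 77 rose and 3 fell, with a median of 0.58. Of all genes tested, 28.1% rose and 30.1% fell in KO FT mice, with a median of -0.03, and 30.9% rose and 37.5% fell in WT FT mice, with a median of -0.11. The share of members that rose was thus 47.7% in KO FT mice and 87.5% in WT FT mice. In bulk RNA, fewer cells of a type and less RNA per cell cannot be told apart.

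By median the rise was largest for complex III and ATP synthase in both transplants, at 0.37 and 0.23 in KO FT mice and 0.78 and 0.71 in WT FT mice. Summed over the 17 complex V genes (without the second Atp5o), levels in KO FT mice averaged 6484 ± 58.5 CPM in aGC females against 5039 ± 95.7 in PBS females, and 6223 ± 413 in aGC males against 4191 ± 129 in PBS males (mean ± SD, n = 3 each). The corresponding WT FT sums were 7969 ± 131 CPM in aGC females against 4538 ± 90.2 in PBS females, and 8577 ± 80.5 in aGC males against 4693 ± 46.2 in PBS males. All aGC libraries lay above all PBS libraries of the same transplant and sex. For complex I the KO FT sums were 3641 ± 74.6 CPM in aGC females against 4471 ± 321 in PBS females, and 4011 ± 354 in aGC males against 3114 ± 168 in PBS males. The WT FT sums were 4855 ± 107 CPM in aGC females against 3659.6 ± 105 in PBS females, and 5391 ± 106 in aGC males against 3699.7 ± 92.2 in PBS males. Here the KO FT aGC females lay below the KO FT PBS females, whereas in the other 3 pairs every aGC library lay above.

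**Figure D1:**
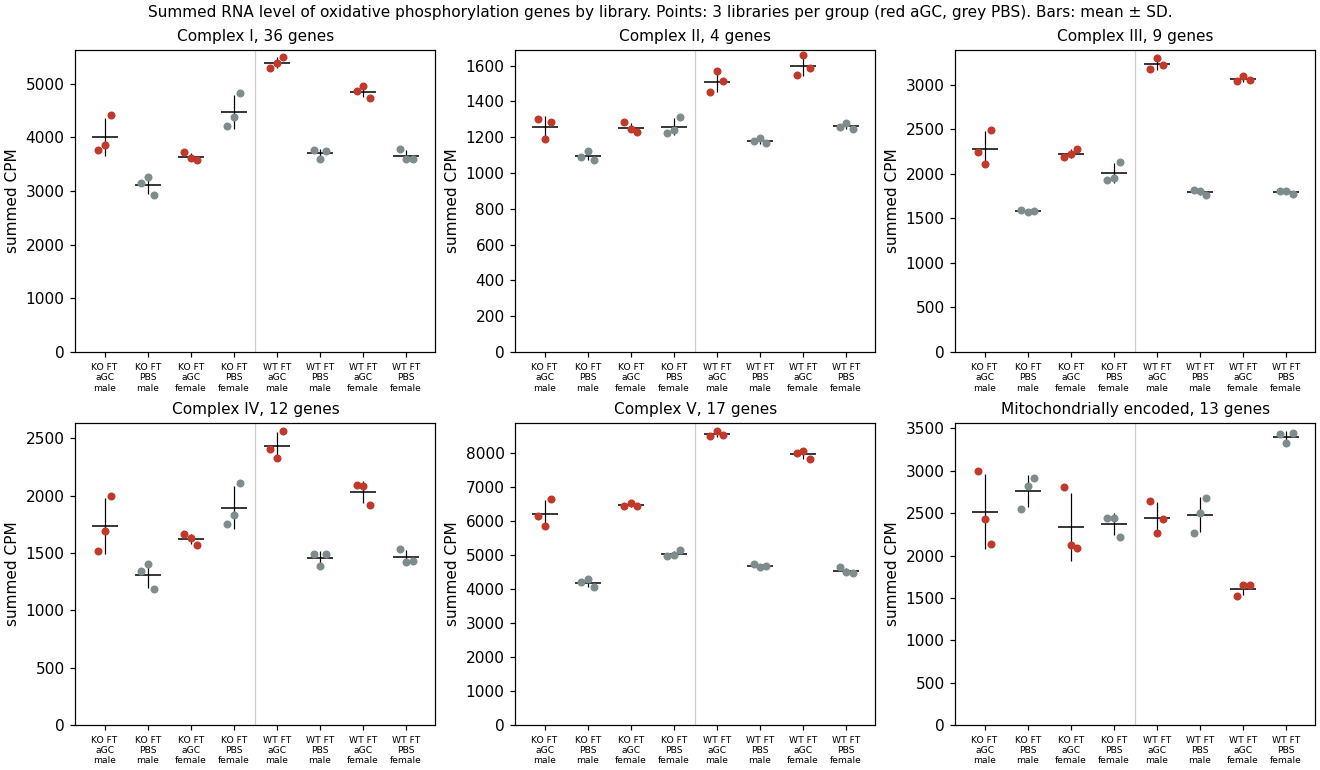
Summed level of the member genes of each complex (CPM, linear axis) by group, with 1 point per library, red for aGC and grey for PBS, and bars for mean ± SD (n = 3). Every complex stands higher after aGC in WT FT mice of both sexes, and complexes I and IV are lower after aGC than after PBS in KO FT females.

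Within a sex the KO FT response split. In KO FT females 15 genes rose and 41 fell (median -0.21), where 27.7% of all genes rose and 28.3% fell. In KO FT males 69 rose and 2 fell (median 0.49), against 26.8% and 26.7% of all genes. In WT FT females 64 rose and 3 fell (median 0.47), against 28.6% and 29.8%, and in WT FT males 75 rose and 3 fell (median 0.75), against 31.7% and 34.9%. In both sexes of KO FT mice 15 genes rose (14.1% of all genes did so), a share near that of all genes, and these 15 were also the ones that rose in all 4 combinations of transplant and sex, as 10.6% of all genes did: Atp5a1, Atp5b, Atp5d, Atp5g1, Atp5g3, Cox5a, Cyc1, Cycs, Ndufaf4, Ndufaf6, Ndufs1, Sdhd, Uqcrc1, Uqcrc2 and Uqcrfs1. Of the 88, 26 fell in KO FT females and rose in KO FT males, against 4.09% of all genes. In WT FT mice 61 rose in both sexes, against 18.6% of all genes.

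With the 3 libraries of each group summed to 1 profile, so that the sexes served as replicates, 1 member rose and none fell in KO FT mice (1.92% and 0.157% of all genes), with 11 at an unadjusted p under 0.05. By the same fit 16 rose and none fell in WT FT mice (7.39% and 2.75% of all genes), with 46 at an unadjusted p under 0.05. The 16 comprise 6 genes of complex V, 5 of complex III, 2 assembly factors, 1 each of complexes I and IV, and Cycs. Between the groups with Cd8a under 50 CPM, 16 rose and 25 fell in KO FT mice (25.6% and 24.3% of all genes; median -0.04), and 78 rose and 2 fell in WT FT mice (28.2% and 32.0%; median 0.66). The split of the KO FT calls thus turned with the choice of groups, and that of the WT FT calls did not.

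**Figure D2:**
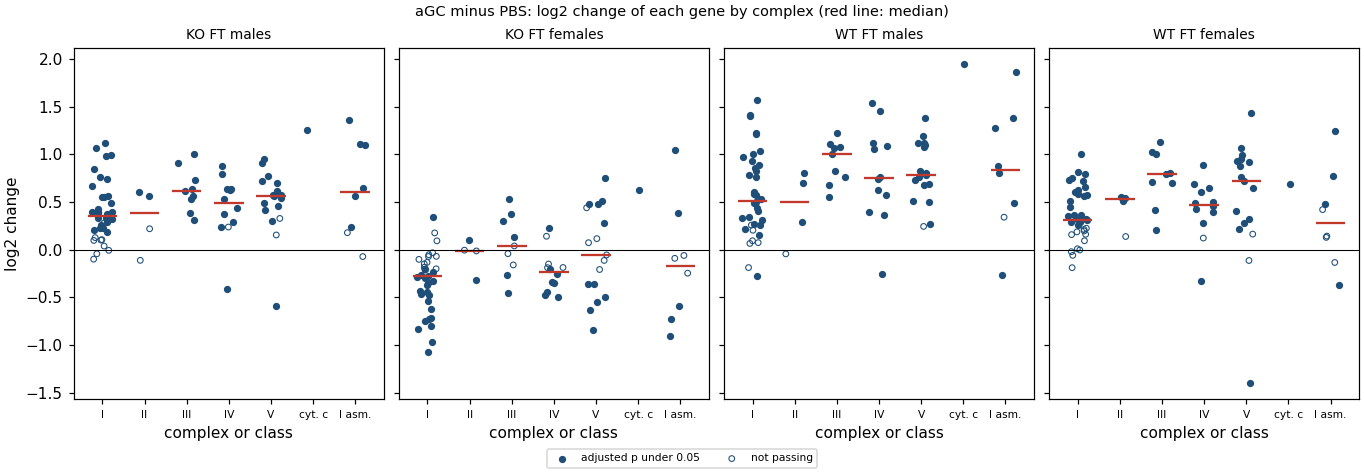
Log2 change with aGC (aGC minus PBS) of each member by complex or class, in 4 panels for KO FT males and females and WT FT males and females, with filled points for an adjusted p under 0.05 and red lines for medians (the second Atp5o is left out). The medians of complexes I to V are above 0 in both WT FT panels and in KO FT males, while in KO FT females that of complex I is -0.28.

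Complex I, the NADH dehydrogenase, holds the largest group of members. In KO FT mice 13 of the 36 subunit genes rose and 8 fell (median 0.03), and in WT FT mice 30 rose (median 0.43). The 7 genes of the catalytic core, which carry the flavin and iron-sulfur centres, rose in 4 cases in KO FT mice and in all 7 in WT FT mice. All 8 falls in KO FT mice were among the 29 accessory genes, of which 9 rose there and 23 rose in WT FT mice, where 28.1% of all genes rose and 30.1% fell in KO FT mice and 30.9% rose in WT FT mice. The KO FT shares of the accessory genes were near those of all genes. In KO FT females 20 of the accessory genes fell, against 28.3% of all genes.

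Ndufab1 (ENSMUSG00000030869.11, chromosome 7, 122085403 to 122101886, minus strand), the mitochondrial acyl carrier protein that is also a complex I subunit, had the largest rise of the complex in both transplants. Its KO FT levels were 134, 130.2 and 120.4 CPM in aGC females against 106, 118 and 117 in PBS females, and at 131, 163 and 159.5 in aGC males against 68.9, 75.7 and 64.2 in PBS males. Among WT FT mice it had 192, 176 and 172 CPM in aGC females against 112, 103 and 111 in PBS females, and at 275, 256 and 291 in aGC males against 89.7, 86.95 and 99.97 in PBS males. All 6 aGC libraries lay above all 6 PBS libraries in each transplant. The log2 change was 0.64 ± 0.06 (SE) in KO FT mice (edgeR, Benjamini-Hochberg adjusted p = 1.25e-09) and 1.15 ± 0.06 in WT FT mice (adjusted p = 1.23e-14). Ndufa12, Ndufb2 and Ndufb6, accessory subunits of the peripheral and membrane arms, followed in WT FT mice at 1.02, 1.00 and 0.96.

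Ndufa3 (ENSMUSG00000035674.13, chromosome 7, 3617373 to 3620327, plus strand), an accessory subunit of the membrane arm, behaved differently. In KO FT mice it stood at 40.99, 55.2 and 46.4 CPM in aGC females against 96.8, 87.9 and 115 in PBS females, and at 61.7, 55.7 and 68.05 in aGC males against 62.6, 55.8 and 63.3 in PBS males. WT FT mice had 66.9, 68.8 and 65.2 CPM in aGC females against 62.7, 54.2 and 58.3 in PBS females, and at 69.97, 72.9 and 85.5 in aGC males against 74.5, 75.9 and 66.7 in PBS males. The females did not overlap, with aGC below PBS in KO FT and above PBS in WT FT mice, while the males of both transplants overlapped. Averaged over the sexes the change was -0.52 ± 0.08 in KO FT mice (edgeR, adjusted p = 3.22e-06) and 0.13 ± 0.07 in WT FT mice, which did not pass (adjusted p = 0.115). Ndufv3, Ndufa7 and Ndufa13 also fell in KO FT mice, with changes of -0.53, -0.36 and -0.35 and WT FT changes of -0.09, 0.11 and 0.15 that did not pass. The catalytic subunit gene Ndufs1, which holds iron-sulfur clusters, rose by a similar amount in both, 0.34 ± 0.05 in KO FT mice and 0.40 ± 0.05 in WT FT mice.

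Of the 8 assembly factors of complex I, 4 rose and 3 fell in KO FT mice (28.1% and 30.1% of all genes). In WT FT mice 7 rose and 1 fell (30.9% and 37.5% of all genes). Ndufaf4 (ENSMUSG00000028261.13, chromosome 4, 24898083 to 24905001, plus strand), which acts early in assembly, stood in KO FT mice at 71.6, 57.7 and 55.8 CPM in aGC females against 28.6, 28.1 and 32.5 in PBS females, and at 56.6, 68.5 and 55.1 in aGC males against 20.6, 26.9 and 21.4 in PBS males. The WT FT values were 60.9, 57.4 and 60.2 CPM in aGC females against 33.6, 32.5 and 38.8 in PBS females, and 101, 89.96 and 95.1 in aGC males against 23.4, 28.3 and 27.2 in PBS males. No aGC library overlapped a PBS library of its transplant, and the WT FT aGC males stood highest. The changes were 1.21 ± 0.08 in KO FT mice (edgeR, adjusted p = 7.17e-12) and 1.32 ± 0.08 in WT FT mice (adjusted p = 4.74e-13), and they did not differ beyond the test's threshold (difference -0.11 ± 0.11, adjusted p = 0.455). Ndufaf6 rose by 0.74 in KO FT mice and 1.26 in WT FT mice. Ndufaf3, another assembly factor, fell in both, by 0.40 in KO FT mice and 0.20 in WT FT mice, and Ndufaf8 fell by 0.36 in KO FT mice but rose by 0.38 in WT FT mice. The Ndufaf8 rise did not pass with library totals (0.23, edgeR adjusted p = 0.117), exon length offsets (0.13, adjusted p = 0.306) or low Cd8a (0.34, adjusted p = 0.11). Its KO FT fall did not pass without replicate 3 of the PBS females (-0.31), replicate 2 of the PBS males (-0.30), replicate 3 of the aGC females (-0.31) or replicate 1 of the aGC males (-0.24).

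Complex II, succinate dehydrogenase, which also works in the citric acid cycle and has no subunit encoded by mitochondrial DNA, had 2 of 4 genes rising in KO FT mice and 3 in WT FT mice. The shares of all genes that rose were 28.1% and 30.9%. The flavoprotein gene of complex II, Sdha (ENSMUSG00000021577.14, chromosome 13, 74322254 to 74350280, minus strand), stood in KO FT mice at 637, 618 and 604 CPM in aGC females against 596, 616 and 665 in PBS females, and at 636, 516 and 582 in aGC males against 622, 635 and 618 in PBS males. In WT FT mice it stood at 675, 770.1 and 718 CPM in aGC females against 654, 671 and 642 in PBS females, and at 563, 646 and 578 in aGC males against 615, 629.9 and 598 in PBS males. The groups overlapped except in WT FT females, where aGC was higher. Neither change passed, at -0.06 ± 0.04 in KO FT mice (edgeR, adjusted p = 0.237) and 0.05 ± 0.04 in WT FT mice (adjusted p = 0.362). Sdhb, the iron-sulfur subunit, changed by 0.28 in KO FT mice and 0.63 in WT FT mice, and the membrane anchor Sdhd by 0.35 in KO FT mice and 0.66 in WT FT mice, all past the threshold. The other anchor, Sdhc, had -0.05 in KO FT mice, which did not pass, and 0.42 in WT FT mice, which did.

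All 9 genes of complex III, the cytochrome bc1 complex, rose in WT FT mice (median 0.78), and 7 rose in KO FT mice (median 0.37). Of all genes 30.9% rose in WT FT and 28.1% in KO FT mice. Cyc1, the cytochrome c1 gene (ENSMUSG00000022551.8, chromosome 15, 76343523 to 76346260, plus strand), stood in KO FT mice at 401, 423 and 449 CPM in aGC females against 325, 333 and 373 in PBS females, and at 454, 421 and 498 in aGC males against 308, 307 and 313 in PBS males. The WT FT libraries stood at 602, 619.8 and 613 CPM in aGC females against 309, 309 and 299 in PBS females, and at 675, 724 and 698 in aGC males against 356, 348 and 341 in PBS males. The aGC libraries lay above the PBS ones in both transplants, and the KO FT aGC libraries lay below all WT FT aGC libraries. The change was 0.43 ± 0.04 in KO FT mice (edgeR, adjusted p = 1.54e-09) and 1.00 ± 0.04 in WT FT mice (adjusted p = 1.58e-16). The small subunit gene Uqcrq had the largest rise of the complex in WT FT mice, 1.18 ± 0.08, and Uqcrfs1, the Rieske iron-sulfur protein, the largest in KO FT mice, 0.63 ± 0.03. Uqcrh and Uqcr11, both small subunits, had 0.03 and 0.08 in KO FT mice and did not pass there.

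Cycs, cytochrome c (ENSMUSG00000063694.5, chromosome 6, 50562563 to 50566538, minus strand), the soluble carrier between complexes III and IV and a trigger of apoptosis when released, rose in every combination of transplant and sex. Its KO FT levels were 83.8, 91.2 and 86.1 CPM in aGC females against 55.5, 60.6 and 53.9 in PBS females, and at 100.4, 100.4 and 99.9 in aGC males against 41.5, 43.9 and 40.7 in PBS males. Among WT FT mice it had 104, 130.2 and 125 CPM in aGC females against 79.3, 70.4 and 72.3 in PBS females, and at 186, 175 and 173 in aGC males against 46.5, 44.00 and 47.97 in PBS males. The groups did not overlap, and the WT FT aGC males were highest. The changes were 0.94 ± 0.05 in KO FT mice (edgeR, adjusted p = 2.16e-13) and 1.32 ± 0.05 in WT FT mice (adjusted p = 9.92e-17). Cycs shares 28.9% of its 31-base words with other genes of at least 1 CPM, foremost the gene model Gm10053, so the estimate depends on how reads were split. With the counts of Cycs and Gm10053 added, the changes were 1.15 in KO FT mice and 1.43 in WT FT mice.

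Of the 12 complex IV genes (cytochrome c oxidase, with Ndufa4 counted here as one of its subunits), 5 rose and 1 fell in KO FT mice (median 0.10), and 11 rose and 1 fell in WT FT mice (median 0.64). The shares of all genes were 28.1% rising and 30.1% falling in KO FT mice, and 30.9% and 37.5% in WT FT mice. Cox5a (ENSMUSG00000000088.7, chromosome 9, 57521274 to 57532426, plus strand), which binds regulatory ligands on the matrix side, had the largest rise of the complex in both. In KO FT mice it stood at 186, 201 and 188 CPM in aGC females against 159, 166 and 166 in PBS females, and at 176, 203 and 225 in aGC males against 113, 114 and 102 in PBS males. In WT FT mice it stood at 259, 246 and 222 CPM in aGC females against 138, 126 and 129 in PBS females, and at 337, 315 and 359 in aGC males against 121, 117 and 130.1 in PBS males. Every aGC library lay above the PBS libraries of its transplant, with changes of 0.55 ± 0.05 in KO FT mice (edgeR, adjusted p = 4.57e-09) and 1.17 ± 0.05 in WT FT mice (adjusted p = 2.52e-15). Of isoform pairs, only the ubiquitous forms were kept: Cox4i1, Cox6a1, Cox6b1, Cox7a2, Cox7b and Cox8a had means between 94.5 and 309.8 CPM, while their tissue-restricted counterparts lay under 1 CPM.

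Cox7a2l (ENSMUSG00000024248.14, chromosome 17, 83501918 to 83517330, minus strand) is classed here as a factor of supercomplexes, in which complexes III and IV are joined, and its function was not tested. It was the 1 member that fell in all 4 combinations, as 6.86% of all genes did. Its KO FT levels were 94.1, 84.5 and 84.2 CPM in aGC females against 118, 121 and 125 in PBS females, and at 77.7, 83.9 and 79.4 in aGC males against 104, 112 and 103 in PBS males. For WT FT mice the values were 83.7, 93.9 and 84.98 CPM in aGC females against 109, 112 and 108 in PBS females, and at 102, 97.8 and 98.4 in aGC males against 115, 118 and 124 in PBS males. All aGC libraries lay below all PBS libraries of the same transplant. The changes were -0.44 ± 0.04 in KO FT mice (edgeR, adjusted p = 1.99e-09) and -0.29 ± 0.04 in WT FT mice (adjusted p = 1.05e-06). Its relative Cox7a2, a subunit of complex IV itself, changed by 0.22 in KO FT mice and 0.88 in WT FT mice, both past the threshold and upward.

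Complex V had 10 of 18 genes rising and 1 falling in KO FT mice (median 0.23), and 16 rising and 1 falling in WT FT mice (median 0.71). Over all genes 28.1% rose and 30.1% fell in KO FT mice, and 30.9% and 37.5% in WT FT mice. The 5 genes of the F1 head and central stalk, where ATP is formed, had medians of 0.37 and 0.83 in KO FT and WT FT mice, where 4 and 5 of them rose. Atp5b (ENSMUSG00000025393.12, chromosome 10, 128083273 to 128090391, plus strand) stood in KO FT mice at 2419.8, 2515 and 2491 CPM in aGC females against 1496, 1416 and 1501 in PBS females, and at 2322, 2058 and 2356 in aGC males against 1346, 1407 and 1338 in PBS males. The WT FT libraries stood at 3017, 3096 and 3043 CPM in aGC females against 1502, 1444 and 1434 in PBS females, and at 3119, 3292 and 3015 in aGC males against 1497, 1469 and 1446 in PBS males. All aGC libraries were above all PBS libraries, and those of KO FT mice lay below those of WT FT mice. The changes were 0.74 ± 0.03 in KO FT mice (edgeR, adjusted p = 1.28e-15) and 1.08 ± 0.03 in WT FT mice (adjusted p = 4.99e-19), close to equal in females and males (0.75 and 0.72 in KO FT mice, 1.06 and 1.10 in WT FT mice).

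The c ring that turns in the membrane is encoded by 3 genes with the same mature product. Atp5g1 (ENSMUSG00000006057.15, chromosome 11, 96068852 to 96075670, minus strand) stood in KO FT mice at 240.3, 246 and 254 CPM in aGC females against 170.00, 176 and 187 in PBS females, and at 219, 246 and 309 in aGC males against 147, 141 and 124 in PBS males. In WT FT mice it stood at 383, 402 and 358 CPM in aGC females against 148, 139 and 136 in PBS females, and at 384, 389.8 and 429.8 in aGC males against 191, 175 and 189.6 in PBS males. The aGC libraries lay above the PBS ones in both transplants. It changed by 0.69 ± 0.06 in KO FT mice (edgeR, adjusted p = 1.19e-09) and by 1.28 ± 0.06 in WT FT mice (adjusted p = 8.31e-15). Atp5g3 rose by 0.64 in KO FT mice and 1.08 in WT FT mice, and Atp5g2 by 0.38 in KO FT mice and 0.64 in WT FT mice. Atp5g2 shares 37.5% of its 31-base words with other genes of at least 1 CPM, foremost Gm10175.

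Atp5k (ENSMUSG00000050856.16, chromosome 5, 108433244 to 108434448, minus strand), subunit e, which holds ATP synthase dimers together, had the largest difference in response between the transplants among the 88 genes. In KO FT mice it stood at 18.9, 20.5 and 19.1 CPM in aGC females against 26.7, 26.4 and 37.3 in PBS females, and at 22.2, 24.2 and 28.2 in aGC males against 16.9, 16.3 and 15.7 in PBS males. WT FT mice had 32.4, 29.6 and 27.5 CPM in aGC females against 16.4, 14.99 and 15.8 in PBS females, and at 36.4, 36.8 and 35.9 in aGC males against 17.6, 16.8 and 17.1 in PBS males. The aGC group was the lower one in KO FT females and the higher one in the other 3 pairs, with no overlap in any. Averaged over the sexes the KO FT change of -0.01 ± 0.08 did not pass (edgeR, adjusted p = 0.942), the WT FT change was 1.00 ± 0.08 (adjusted p = 8.68e-11), and the difference was -1.01 ± 0.11 (adjusted p = 2.63e-07). The coupling factor B gene Atp5s was the complex V gene that fell, by 0.71 in KO FT mice and 0.58 in WT FT mice on the log2 scale. The second Atp5o model shares 94% of its words with other genes, foremost Donson, and stood at 0 in several libraries, so it is not described further.

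**Figure D3:**
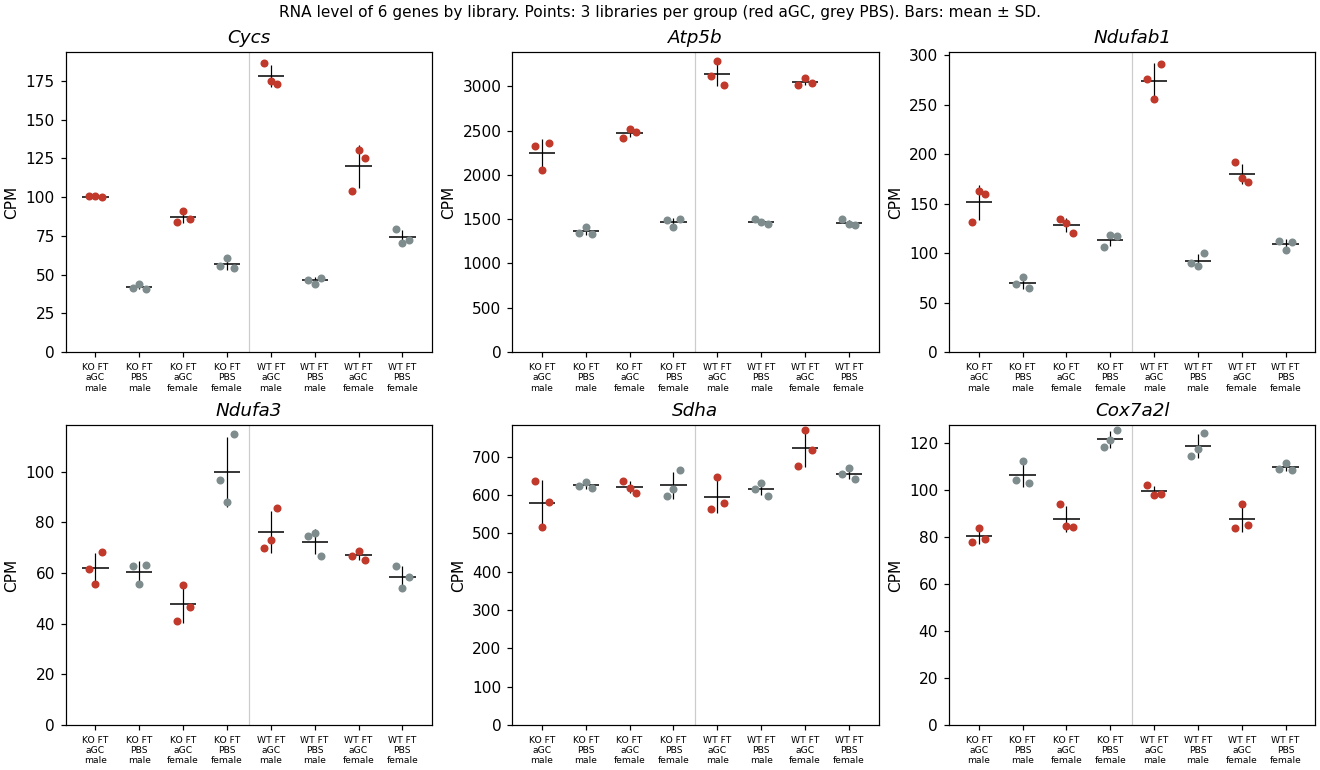
CPM of 6 members in each library (linear axes, 1 panel per gene) by group, red for aGC and grey for PBS, with bars for mean ± SD (n = 3). Cycs, Atp5b and Ndufab1 are higher in every aGC group, Cox7a2l is lower in every aGC group, Ndufa3 is lower after aGC in KO FT females, and the Sdha groups largely overlap.

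After aGC, the genes of every complex were lower in KO FT than in WT FT mice. Of the 88, 85 were lower and none higher (median log2 difference -0.41), against 26.5% lower and 25.4% higher of all genes. None was higher at an unadjusted p under 0.05 either, and DESeq2 also gave 85 lower and none higher. All 36 subunit genes of complex I, 4 of complex II, 9 of complex III, 12 of complex IV and 8 assembly factors were lower, as was Cycs, and 15 of 18 in complex V. The median differences were -0.42, -0.41, -0.48, -0.38 and -0.41 for complexes I to V, a narrow range. Within the sexes 73 were lower and none higher in females (24.4% and 19.0% of all genes; 75 lower and none higher at an unadjusted p under 0.05), and 74 lower and 1, the second Atp5o, higher in males (22.4% and 24.2%). In both sexes 62 were lower, against 12.2% of all genes.

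The summed level of all members (87 genes) after aGC was 15568 ± 114 CPM in KO FT females against 19948 ± 389 in WT FT females, and 15899 ± 1175 in KO FT males against 21725 ± 259.8 in WT FT males. No KO FT aGC library reached a WT FT aGC library of its sex. The largest single differences were those of Ndufa12 (-0.68 ± 0.07) and Ndufab1 (-0.67 ± 0.06) in complex I, Ndufaf6 (-0.66 ± 0.06) among the assembly factors and Cycs (-0.65 ± 0.05), each with an adjusted p of at most 2.87e-08 in edgeR. The smallest among the genes that passed were Sdha (-0.13 ± 0.04), Ndufs1 (-0.18 ± 0.05) and Cox7a2l (-0.16 ± 0.04), of which Cox7a2l turned to 0.04 with offsets for exon length. With library totals Ndufs1 had -0.055 and Sdha -0.0019, neither of which passed. Sdha also did not pass with low Cd8a (-0.043), without replicate 2 of the WT FT aGC females (-0.11) or without replicate 2 of the WT FT aGC males (-0.10). Those not passing were Atp5g2, Atp5s and the second Atp5o. With 1 profile per group, none passed in either direction (0% of all genes), with 19 at an unadjusted p under 0.05. Between the groups with Cd8a under 50 CPM, which here are the males, the counts were those given above for males.

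After PBS the transplants differed little on average over the sexes, and the sexes went opposite ways. Of the 88 genes 7 were higher and 7 lower in KO FT mice (median 0.05), against 14.6% and 14.8% of all genes. In females 56 were higher and 2 lower (median 0.27; 14.9% each of all genes), and in males 1, Atp5s, was higher and 44 lower (median -0.20; 21.1% and 21.4%). Of these, 29 were higher in KO FT females and lower in KO FT males, against 5.35% of all genes. With offsets for exon length the split was 11 higher and 7 lower over both sexes, 35 higher and 3 lower in females, and 4 higher and 26 lower in males. Over both sexes 2421 of the 15942 genes in that fit were higher and 2324 lower. The shares of all genes within a sex by that fit are not given here. The summed level after PBS was 15009 ± 764 CPM in KO FT females against 13043 ± 274 in WT FT females, and 11527 ± 439.9 in KO FT males against 13098 ± 183 in WT FT males, with no overlap in either sex. Atp5k was the gene that stood out in females (0.94 ± 0.11) and Ndufa12 in males (-0.63 ± 0.10). Cycs was lower in KO FT mice, by 0.39 in females, and its -0.13 in males did not pass. With 1 profile per group none passed, nor had any an unadjusted p under 0.05, and the share of all genes that passed was 0%. Without replicate 3 of the KO FT PBS females the female count in either direction was 37, against 58, and the count over both sexes was 9, against 14. Without replicate 3 of the WT FT PBS females the count over both sexes was 8.

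The sexes of a transplant also differ in conventional T cell markers after PBS. The 7 listed CD8 T cell genes summed to 602 to 630.5 CPM in KO FT males against 1123 to 1145 CPM in WT FT males, and to 162 to 168 CPM in KO FT females against 158 to 164 CPM in WT FT females. The part of these markers in the differences of the members was not tested. In PBS females, where most members that passed were higher in KO FT, the naive genes summed to 1167 to 1194 CPM in KO FT against 1299 to 1316 CPM in WT FT mice, and the myeloid genes to 42.6 to 50.9 CPM in KO FT against 66.3 to 68.6 CPM in WT FT mice.

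The signed log2 change with aGC was lower in KO FT than in WT FT mice for 77 of the 88 genes and higher for none (median difference -0.46). Of all genes, it was lower for 22.6% and higher for 21.9%. A lower signed change can be a smaller rise or a larger fall. Cox7a2l, which passed, fell in both transplants and further in KO FT mice. DESeq2 also gave 77 lower and none higher, and none was higher at an unadjusted p under 0.05. The 77 are not all weaker responses. By complex the lower changes were those of 34 of 36, 3 of 4, 9 of 9, 12 of 12 and 14 of 18 genes for complexes I to V, Cycs, and 4 of 8 assembly factors. After Atp5k the largest were Ndufb7 (-0.75 ± 0.12), Ndufaf8 (-0.74 ± 0.18), Ndufb2 (-0.72 ± 0.11) and Atp5mpl, a small membrane subunit of ATP synthase (-0.71 ± 0.09). Ndufs1 (-0.06 ± 0.07, adjusted p = 0.466), Sdha (-0.11 ± 0.06, adjusted p = 0.165) and Atp5f1 (-0.00 ± 0.07, adjusted p = 0.993) did not pass in edgeR. With 1 profile per group none passed (0% of all genes), with 2 at an unadjusted p under 0.05. Between the groups with Cd8a under 50 CPM, 81 were lower and none higher (20.7% and 22.8% of all genes; median -0.73). The responses and the comparisons of transplants share libraries and are not independent of each other.

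**Figure D4:**
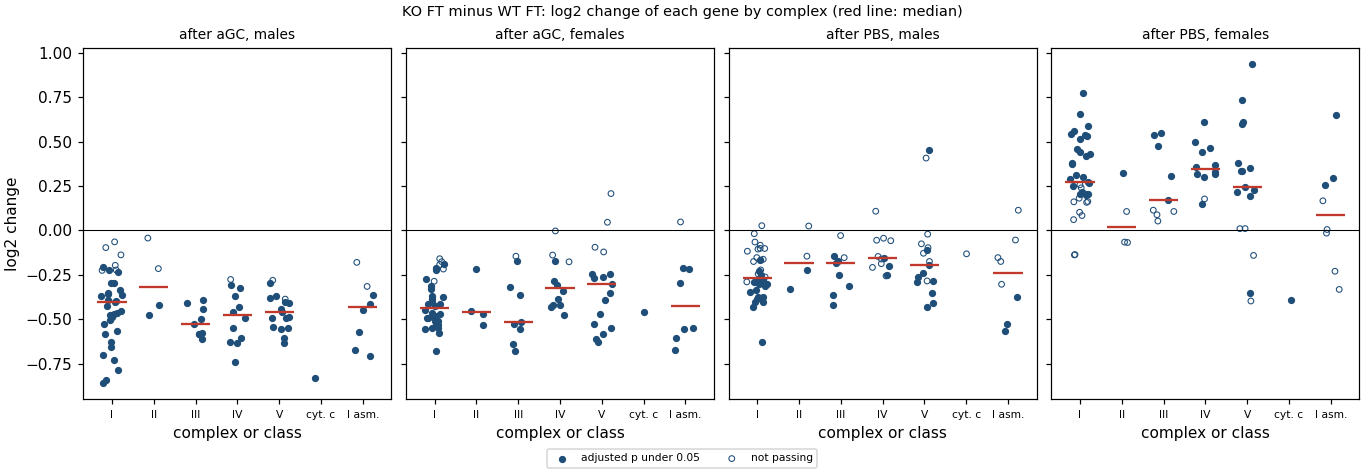
Log2 difference between the transplants (KO FT minus WT FT) of each member by complex or class, in 4 panels for males and females after aGC and after PBS, with filled points for an adjusted p under 0.05 and red lines for medians (the second Atp5o is left out). After aGC the medians of complexes I to V lie below 0 in both sexes, and after PBS that of complex I is -0.26 in males and 0.27 in females.

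The aGC response differed between the sexes for most members in KO FT mice. In WT FT mice the count of members in either direction was near the share of all genes. In KO FT mice the signed log2 change of males was above that of females for 75 genes and below it for none (median difference 0.68). The shares of all genes were 25.3% and 21.4%, and at an unadjusted p under 0.05 the member counts were 75 and none. In WT FT mice the male change was above the female one for 37 and below it for 6 (median 0.13), against 24.2% and 23.5% of all genes. The largest in KO FT mice was Ndufc1, a small accessory subunit of complex I, at 29.6, 34.6 and 34.5 CPM in aGC males against 19.8, 20.96 and 17.96 in PBS males, and 27.9, 26.8 and 23.6 in aGC females against 42.01, 44.7 and 42.1 in PBS females. Neither pair overlapped, and the pairs lay in opposite directions, with a male minus female difference of 1.46 ± 0.16 (edgeR, adjusted p = 2.26e-07). The largest in WT FT mice was Atp5s, at 14.6, 16.2 and 18.7 CPM in aGC males against 14.7, 11.8 and 15.2 in PBS males, and 11.5, 10.7 and 9.79 in aGC females against 27.2, 27.1 and 30.04 in PBS females. The males overlapped and the females did not, a difference of 1.64 ± 0.17 (edgeR, adjusted p = 4.67e-08). Atp5b did not differ between the sexes past the threshold, at -0.03 ± 0.06 in KO FT and 0.03 ± 0.06 in WT FT mice, nor did Cox7a2l, at 0.07 ± 0.08 and 0.07 ± 0.08. Of the 3 X-linked members, Ndufa1, Ndufb11 and Cox7b, the male minus female differences were 0.94, 0.87 and 0.39 in KO FT mice.

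**Figure D5:**
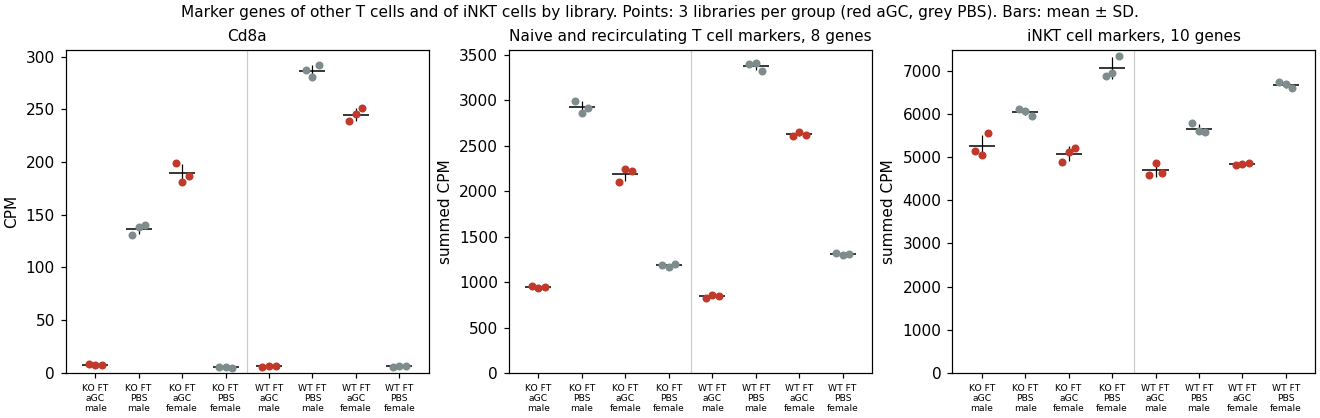
Levels of Cd8a, of the 8 naive T cell genes summed and of the 10 iNKT genes summed (CPM, linear axes) in each library by group, with mean ± SD (n = 3). Cd8a and the naive genes are high in aGC females and PBS males and low in aGC males and PBS females, so each aGC to PBS comparison within a sex crosses them, in opposite directions for the sexes.

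The crossing of the markers runs with the sex difference. In KO FT females, where most members that passed fell, the naive genes summed to 2191 ± 76.2 CPM after aGC against 1183 ± 14.04 after PBS, and in KO FT males to 944 ± 8.34 after aGC against 2924 ± 66.5 after PBS. The same crossing was present in WT FT mice, at 2628 ± 20.7 CPM after aGC against 1307 ± 8.21 after PBS in females and 846 ± 15.6 against 3379 ± 48.3 in males, and members rose in both sexes there. The 10 iNKT genes summed to 4582 to 5558 CPM after aGC against 5586 to 7339 CPM after PBS. The 8 B cell genes summed to 453 to 717 CPM after aGC against 969 to 1072 CPM after PBS, most of it Ighm. The 8 myeloid genes summed to at most 68.6 CPM. What part these have in the members' changes was not tested.

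The 13 subunits encoded by mitochondrial DNA did not follow the nuclear members. In KO FT mice 1 rose and 1 fell with aGC (28.1% and 30.1% of all genes), and in WT FT mice 10 fell (37.5% of all genes). Their summed level in WT FT mice was 1607 ± 77.3 CPM in aGC females against 3403 ± 65.8 in PBS females, and 2446 ± 188 in aGC males against 2482 ± 203 in PBS males, so that the fall stood in the females. mt-Co1, the catalytic subunit of complex IV, fell by 0.39 in KO FT mice and 0.94 in WT FT mice, while the nuclear Cox5a of the same complex rose. After aGC 7 of the 13 were higher in KO FT than in WT FT mice (25.4% of all genes), with 8 in females (19.0%) and none in males (24.2%). After PBS 10 were lower in KO FT females (14.9% of all genes) and none in KO FT males (21.4%). Reads on mitochondrial genes were 0.148 to 0.373% of a library.

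Averaged over the sexes, neighbouring groups of mitochondrial genes mostly rose with aGC, but they parted from the members in KO FT females. For reference, 28.1% of all genes rose and 30.1% fell in KO FT mice, and 30.9% rose and 37.5% fell in WT FT mice. Of 16 genes of the citric acid cycle and pyruvate dehydrogenase, 13 rose and 1 fell in KO FT mice and 15 rose and 1 fell in WT FT mice, among them the fumarase gene Fh1 at 0.74 in KO FT and 1.43 in WT FT mice and the citrate synthase gene Cs at 0.44 in KO FT and 0.74 in WT FT mice. Of 12 carriers, channels and import genes, 11 rose in KO FT mice and all 12 in WT FT mice. Among these, Tomm40, the pore of the outer membrane, changed by 1.17 in KO FT mice and 1.74 in WT FT mice, and Slc25a5, which exchanges ADP for ATP, by 0.69 in KO FT mice and 1.06 in WT FT mice. After aGC 11 of the 12 were lower in KO FT mice, and of the cycle genes 11 were lower and 3 higher, against 26.5% lower and 25.4% higher of all genes. In KO FT females, where most members that passed fell with aGC, 9 of the 16 cycle genes rose and 1 fell. Of the 12 carriers, channels and import genes, 8 rose there and none fell. Of all genes, 27.7% rose and 28.3% fell in KO FT females.

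Assembly factors other than Ndufaf genes were also counted. Of 40 tested, 13 rose and 14 fell in KO FT mice, and 22 rose and 5 fell in WT FT mice. Over all genes 28.1% rose and 30.1% fell in KO FT mice, near those counts, and 30.9% rose and 37.5% fell in WT FT mice. Coa7, a complex IV assembly factor, rose by 0.63 in KO FT mice and 1.14 in WT FT mice, and Uqcc2, which serves complex III, by 0.45 in KO FT mice and 1.11 in WT FT mice. Tmem126b of complex I assembly fell by 0.74 in KO FT mice and 0.88 in WT FT mice, and Surf1 of complex IV assembly by 0.35 in KO FT mice and 0.72 in WT FT mice. After aGC 28 were lower in KO FT mice and 3 higher, against 26.5% and 25.4% of all genes.

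Among 17 tested regulators of mitochondrial gene expression, 10 rose and 2 fell in KO FT mice (28.1% and 30.1% of all genes). In WT FT mice 10 rose and 4 fell (30.9% and 37.5% of all genes). Myc, a transcription factor of growing and activated T cells, rose by 1.76 in KO FT mice and 2.12 in WT FT mice, and was lower in KO FT than in WT FT mice after aGC (-0.45 ± 0.05). Pprc1, a coactivator related to PGC-1, rose by 1.43 in KO FT mice and 0.67 in WT FT mice, and was higher in KO FT mice after aGC (0.57 ± 0.08), opposite to the members. Gabpa, the DNA-binding part of GABP, rose by 0.50 in KO FT mice and 0.61 in WT FT mice, and Tfam, which packages mitochondrial DNA, by 0.50 in KO FT mice and 0.38 in WT FT mice. Nrf1 itself did not pass, at -0.09 in KO FT and 0.09 in WT FT mice, and Ppargc1a had at most 0.120 CPM in any group.

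Of the 88 members, 39 share no 31-base word with another gene of at least 1 CPM and 14 share over 10%, among them Ndufb6 with Smim27 and Ndufa13 foremost with Tssk6, whose estimates depend on how reads were split. Over the 74 that share at most 10%, 34 rose and 12 fell with aGC in KO FT mice and 65 rose and 3 fell in WT FT mice, and after aGC 73 were lower in KO FT than in WT FT mice. The shares of members that moved were thus close to those over all 88 genes. Of all genes tested, 28.1% rose and 30.1% fell in KO FT mice, 30.9% and 37.5% in WT FT mice, and 26.5% were lower in KO FT mice after aGC.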

How the data were processed

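The authors deposited whole-number expected counts for each gene, made with kallisto on GRCm38 (mm10) per the submitters' processing notes. The sources used here give neither its version nor its annotation. Libraries were made by tagmentation that keeps no strand, per the labels' protocols, so genes that overlap on opposite strands cannot be separated. Symbols and coordinates came from GENCODE M21, matched by Ensembl identifier, for 55154 of 55335 genes.

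Genes were filtered with edgeR's filterByExpr (minimum count 10, minimum total 15), and 15953 remained. With TMM factors, the quasi-likelihood test of edgeR was fitted to all 24 libraries with 8 group means (16 residual degrees of freedom). Comparisons weight the sexes equally unless a sex is named, are two-sided, and p-values were adjusted over the 15953 genes by Benjamini-Hochberg at 0.05. Each SE was computed as log2 change over root F, and CPM are TMM-scaled. The members and lists were chosen with earlier results of these data known. Within each comparison the text names up to 3 members of a complex with the largest rises and falls at 5 CPM or more, up to 2 that did not pass, isoform sets, Cycs, Ndufaf and Sdh genes, and up to 4 passing genes of a list. Other members are named for their role, or were chosen after their values were seen.

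On simulated counts for the WT FT comparison over 15953 genes, the test called 61 of 67 genes at a 1.5-fold change, 67 of 67 at 2-fold and 65 of 66 at 4-fold, and 6 of 15753 unchanged ones. The simulated libraries were independent, with the spread fitted to these data and few changed genes. The simulation therefore does not give error rates where many genes change at once or libraries are technical replicates. All 24 pairs of replicates differed beyond counting noise (chi-square per degree of freedom 4.11 to 16.4). Promoters are RefSeq's, on GRCm38.p6. Alternatives were library totals, upper quartile factors, DESeq2 1.42.0, other filters and thresholds, exon length offsets, replicate blocks, leaving out each library, 1 summed profile per group, groups with low Cd8a, and added counts of near-identical gene models. Fits ran in R 4.3.3 with edgeR 4.0.16 and limma 3.58.1, summaries in Python 3.11.15 with pandas 2.3.3 and numpy 2.4.6, and plots in matplotlib 3.10.9.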

Additional observations from a re-analysis of the deposited data

Results flagged for a closer look

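The aGC response differed between the transplants, by a test of the difference itself, for 77 of the 88 genes (22.6% of all genes were lower and 21.9% higher). The largest such difference was that of Atp5k, at -1.01 on the log2 scale (KO FT minus WT FT). The response differed between the sexes (male minus female) for 75 genes in KO FT mice, where the largest difference was 1.46 for Ndufc1. Of all genes 25.3% were higher and 21.4% lower in that test. In WT FT mice it differed between the sexes for 43 genes, and the largest difference was 1.64 for Atp5s. There 24.2% of all genes were higher and 23.5% lower, so the count of 43 in either direction was near the share of all genes. Groups of 3 libraries are too small for a test of single outlying libraries.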

How the results depend on the processing

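Counts are members passing in either direction. With 1 summed profile per group they were 1 (KO FT response), 16 (WT FT response), 0 (transplants after PBS), 0 (after aGC) and 0 (response difference). That fit held a sex term and left 3 residual degrees of freedom. Its coefficient of variation of 0.424 takes in how the effects differed between the sexes. It is not a spread of replicates, as the 0.108 between libraries in the main fit is. Tested against a fold of 1.2 they were 25 for the KO FT response (32 in females), 53 for the transplants after aGC (39 in females), 0 after PBS (15 in females, 5 in males) and 25 for the sex difference in WT FT mice. Of all 15953 genes, 3111 rose and 3191 fell by that test in KO FT mice, a larger share than that of the members. Between the transplants 2463 were higher and 1967 lower after aGC, and 772 and 742 after PBS. The shares of all genes by that fold test within a sex and for the sex difference are not given here. Those member counts therefore cannot be set against them. The transplants after PBS gave 6 at an adjusted p under 0.01. With low Cd8a they gave 58, which is the comparison of the PBS females, with a share higher of 96.6% against 50% over both sexes. The share of KO FT calls that rose was 39% with low Cd8a, against 76.4%. After PBS 1382 of all genes were higher and 1425 lower at 0.01, and 14.9% each with low Cd8a. Exon length offsets gave 38 in PBS females, and with the replicate block 37 in PBS females and 29 in PBS males. The main fit called 14.9% of all genes in each direction in PBS females, and 21.1% higher and 21.4% lower in PBS males. The shares of all genes within a sex by the offsets and by the block are not given here. Leaving out 1 library gave 8 to 18 for the transplants after PBS (37 to 61 in females), 80 to 81 for the WT FT response, 51 to 57 for the KO FT response, 83 to 86 after aGC and 74 to 78 for the response difference. With all libraries 28.1% of all genes rose and 30.1% fell in KO FT mice, near the members' count there, and 30.9% rose and 37.5% fell in WT FT mice. Between the transplants 14.6% were higher and 14.8% lower after PBS, and 25.4% and 26.5% after aGC. The response difference was higher for 21.9% and lower for 22.6%. Library totals alone, which leave out the TMM factors, gave a median of all genes of -0.26 in WT FT mice, against -0.11, and 71 members rose and 6 fell. Of all genes 4148 rose and 7127 fell in that fit. Beyond these changes of groups and scaling, the cause of the shifts was not tested.

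Signs turned for 6 named genes. Atp5k in KO FT mice had 0.0269 with length offsets (0.0267 with the block too), 0.0031 in DESeq2 and -0.062 to 0.083 with a library left out. Cox7a2l had 0.0400 with length offsets (0.0408 with the block) in the transplants after aGC, and 0.0382 (0.0395 with the block) in the response difference. Ndufa3 in WT FT mice had -0.014 with library totals, -0.095 with length offsets and -0.096 with the block added. Library totals gave response differences of 0.0143 for Ndufaf4, 0.060 for Ndufs1 and 0.0148 for Sdha, which had 0.025 with low Cd8a. Sdha in WT FT mice had -0.10 with library totals, -0.0067 with upper quartile factors, -0.023 with no filter and -0.14 with low Cd8a. In the other checks on named genes the sign held: 2087 stayed on the same side of the p threshold, 98 no longer passed and 8 passed newly.

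Replicate numbers do not pair the libraries: of 84 same-numbered pairs 10 correlated above 0.1, and 2 of 24 libraries correlated best with their own number. With the replicate block the counts were 54 in KO FT mice, 80 in WT FT mice, 12 after PBS, 85 after aGC and 77 for the response difference. Of all 15953 genes, 4442 rose and 4719 fell with the block in KO FT mice, and 4899 and 5905 in WT FT mice. Between the transplants 2219 were higher and 2276 lower after PBS, and 3991 and 4183 after aGC. The response difference was higher for 3427 and lower for 3549. With counts of near-identical gene models added, an alternative chosen after seeing the data, 42 rose and 13 fell in KO FT mice and 77 rose and 3 fell in WT FT mice. Of 15950 genes 4475 rose and 4795 fell there in KO FT mice, and 4931 and 5974 in WT FT mice.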
